A study of Mus musculus with 4 samples.

Results

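Matrix metalloproteases (MMPs) are zinc enzymes that cut collagen, elastin and other proteins of the extracellular matrix, and tissue inhibitors of metalloproteases (TIMPs) bind their active site and block them. ADAM8 is a related protease anchored in the cell membrane. In the lung such enzymes are known as products of macrophages and neutrophils, and MMP-12, the macrophage elastase, is known for breaking down elastin in mice exposed to smoke. The genes described are 9 of 13838 in the deposited matrix, chosen by name from this family: the proteases Mmp8, Mmp9, Mmp12, Mmp13, Mmp14, Mmp19 and Adam8 and the inhibitors Timp1 and Timp2. All 9 were present in the matrix.

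Their transcripts were counted in single cells from bronchoalveolar lavage of C57BL/6 mice, a wash that collects cells lying free in the airspaces. There were 4 groups with 1 library each, and each library pooled 7 mice. The HDM+APM group breathed aerosolized Afghanistan particulate matter (APM) at 5 mg/m3, 6 hours daily for 12 days, and later received house dust mite (HDM), an allergen, into the nose at 10 µg. The HDM group breathed filtered air and received the same allergen, the APM group breathed the dust and received saline, and the control group breathed filtered air and received saline. Allergen or saline was given on days 22 and 29 and again on days 36, 37 and 38, with harvest on day 39. No group carried a mutation or transgene. Pooling left no measure of variation between mice, so no difference below has a replicate check, p-values are absent, and every interval is a 95% interval for counting error alone.

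Unique molecular identifiers (UMIs) count single captured transcripts. There were 1123 HDM+APM cells with 5197132 UMIs, 994 HDM cells with 1920648, 3890 APM cells with 11355310 and 3918 control cells with 15170333. The median cell held 4780 UMIs in HDM+APM, 1380 in HDM, 2637 in APM and 3417 in control. The authors' table named 17 refined cell types. Across libraries 42 cell barcodes occurred in 2 or more. Macrophage clusters 1 to 7, 9 and 10 together made up 4.10% of HDM+APM cells, 6.04% of HDM cells, 90.0% of APM cells and 96.4% of control cells. The 308 cells named classical monocyte all came from the HDM+APM library, as did 404 of the 413 cells of the type B cells 2. In a cluster drawn from 1 library, cell type and library cannot be told apart.

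The names were checked by counting listed markers among the 10 leading genes of each type, ranked by fold over the other cells. The cells named classical monocyte had no monocyte marker among those genes. They had 2 markers of cavity macrophages and 2 of monocyte-derived macrophages, so they are given with the authors' name in quotation marks. Macrophage 8 had no alveolar macrophage marker there and 1 epithelial marker, so it is called by its number. Macrophage 6 had 2 epithelial markers and 1 alveolar macrophage marker, and in the epithelial type markers of red blood cells (4) outnumbered epithelial ones (2). The libraries of Macrophage 8 also differed in other cells' markers: the 5 red blood cell markers summed to 42.3 counts per 1000000 UMIs (CPM) in HDM+APM, 6195 in HDM, 19541 in APM and 375 in control cells. The 7 epithelial markers summed to 1520 CPM in HDM+APM, 348 in HDM, 3427 in APM and 16018 in control cells. The 11 alveolar macrophage markers summed to 34489 CPM in HDM+APM, 36777 in HDM, 6057 in APM and 7062 in control cells. Of the HDM sum, 33276 CPM came from Chil3 alone, so it is mostly a value of 1 gene. The part of these differences in the values of Macrophage 8 below was not tested. The granulocyte-like type had 3 neutrophil markers among its leading genes, and its 9 measured neutrophil markers summed to 33018 CPM, against 145 CPM for 5 eosinophil markers.

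A level is the UMI sum of a gene over the cells of a type and library, scaled to CPM of those cells. The kit tags transcripts at the 3' end, so a level does not scale with gene length. In all, 4992 UMIs of Timp2 were counted, 2093 of Mmp12, 950 of Mmp19, 468 of Mmp8, 184 of Adam8, 125 of Mmp14, 82 of Mmp9, 54 of Timp1 and 51 of Mmp13. Timp2 was detected in 2267 of 9925 cells, Mmp19 in 818, Mmp12 in 418 and Mmp13 in 23. The last 5 of these genes by UMI sum therefore give wide intervals in all but their leading types.

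On the mouse build mm10, GENCODE vM21 places 3 of the proteases in 1 gene cluster at chr9:7272514-7568485, which holds 7 genes with an Mmp name. Mmp13 lies at chr9:7272514-7283331, Mmp12 at chr9:7344381-7369499 and Mmp8 at chr9:7558456-7568485, all on the plus strand. The others are scattered: Mmp9 at chr2:164940780-164955850, Mmp19 at chr10:128790910-128800824, Mmp14 at chr14:54431612-54445364, Adam8 at chr7:139978932-139992562, Timp1 at chrX:20870166-20874735 and Timp2 at chr11:118301069-118355740. All 9 are protein coding. Timp1 lies within the span of Syn1 on the opposite strand and Mmp19 overlaps Tmem198b on the opposite strand, so without knowledge of the strand setting their reads cannot be told apart from those of these partners.

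Mmp12 and Mmp13 had most of their UMIs in the same cluster, Macrophage 8, and Mmp8 did not. For Mmp13 this rested on 1 HDM cell, which held 25 of its 51 UMIs. The 250 bases before the RefSeq start sites of these 3 neighbours (GRCm38.p6, plus strand) are shown. For Mmp12 the window is chr9:7347124-7347373, which lies inside the GENCODE span of the gene, after an earlier RefSeq start site at chr9:7344397. For Mmp13 it is chr9:7272264-7272513, and for Mmp8 chr9:7558179-7558428. Capitals mark matches on either strand to TGANTCA, the AP-1 motif, and to TATAAA.
Mmp12: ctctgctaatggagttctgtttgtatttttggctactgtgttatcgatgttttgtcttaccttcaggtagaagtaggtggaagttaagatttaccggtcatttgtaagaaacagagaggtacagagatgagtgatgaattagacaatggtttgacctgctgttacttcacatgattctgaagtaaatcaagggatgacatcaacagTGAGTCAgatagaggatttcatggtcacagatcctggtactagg
Mmp13: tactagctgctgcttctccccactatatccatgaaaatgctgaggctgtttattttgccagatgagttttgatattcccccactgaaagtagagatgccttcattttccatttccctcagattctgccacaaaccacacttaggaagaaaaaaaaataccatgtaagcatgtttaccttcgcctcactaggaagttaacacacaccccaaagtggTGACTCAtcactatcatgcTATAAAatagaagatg
Mmp8: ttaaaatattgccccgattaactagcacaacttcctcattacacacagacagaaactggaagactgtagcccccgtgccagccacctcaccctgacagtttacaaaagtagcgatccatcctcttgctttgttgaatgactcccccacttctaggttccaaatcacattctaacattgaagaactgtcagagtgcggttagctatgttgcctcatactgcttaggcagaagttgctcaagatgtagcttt

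The AP-1 letters occurred once before Mmp12, from 44 bases before the start, and once before Mmp13, from 35 bases before it. TATAAA occurred once, before Mmp13. Of 32851 promoter windows of this length, 6.75% held the AP-1 letters and 12.4% held TATAAA. Promoters were found for 7 of the 9 genes, all but Mmp9 and Mmp19, and the windows of Mmp8, Mmp14, Adam8, Timp1 and Timp2 held neither motif, nor did the second window of Mmp12 at chr9:7344147-7344396. These are matches of letters, not measured binding sites.

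**Figure D1:**
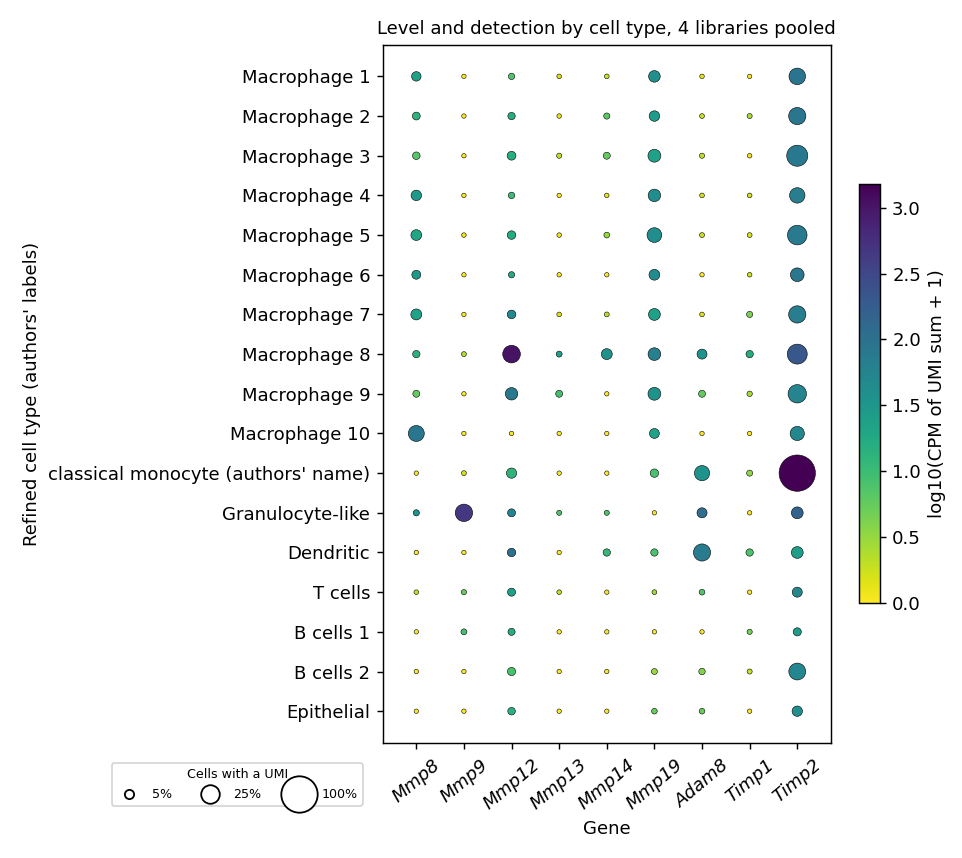
Level (colour, log10 of CPM + 1) and share of cells with at least 1 UMI (dot area) of the 9 genes in the 17 refined cell types, with the 4 libraries pooled. The darkest dots are Timp2 in the "classical monocyte" cells at 1500 CPM, Mmp12 in Macrophage 8 at 1057 CPM and Mmp9 in the granulocyte-like type at 469 CPM, while Mmp8 and Mmp19 spread over the macrophage clusters.

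The macrophage elastase Mmp12 was centred on Macrophage 8. With libraries pooled it reached 1057 CPM there (1004 to 1111), ahead of the dendritic type at 97.2 CPM (64.6 to 140) and Macrophage 9 at 76.2 CPM (56.2 to 101), whose intervals overlapped. Mmp12 was also the gene with the highest fold in Macrophage 8 among all genes, so it helped to define that cluster and its level there is a description. Macrophage 8 made up 5.77% of all cells and held 72.4% of all Mmp12 UMIs.

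Within Macrophage 8, Mmp12 had 320 UMIs in 110 HDM+APM cells, 1167 UMIs in 139 HDM cells, 23 UMIs in 214 APM cells and 6 UMIs in 110 control cells. These counts correspond to 644 CPM (576 to 719) in HDM+APM, 2541 CPM (2397 to 2691) in HDM, 71.6 CPM (45.4 to 107) in APM and 38.1 CPM (14.0 to 83.0) in control cells. The HDM cells were highest, the HDM+APM cells next, and the intervals of the APM and control cells overlapped. A UMI of Mmp12 was seen in 30.0% of HDM+APM cells, 56.1% of HDM cells, 6.07% of APM cells and 3.64% of control cells. The median depths were 4840 UMIs in HDM+APM, 3056 in HDM, 1218.5 in APM and 1176 in control cells. T cells, which should lack this gene, showed it in 2.21% of HDM+APM cells at a median of 1850.5 UMIs and in 4.26% of HDM cells at 1327 UMIs. No T cell carried it among 52 APM and 13 control cells, too few to measure the background share of these libraries. After thinning every Macrophage 8 cell to 500 UMIs the shares were 14.5% in HDM+APM, 36.6% in HDM, 2.80% in APM and 1.63% in control cells.

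The transcript was spread unevenly over the cells. In HDM cells of Macrophage 8, 34 of 139 cells carried 10 or more Mmp12 UMIs, 61 carried none, and the highest held 148. In HDM+APM cells, 7 of 110 carried 10 or more, 77 carried none and the highest held 74. The 10 highest cells held 85.0% of the HDM+APM sum and 54.1% of the HDM sum. The highest single cell held 23.1% of the Mmp12 UMIs in HDM+APM and 12.7% in HDM.

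**Figure D2:**
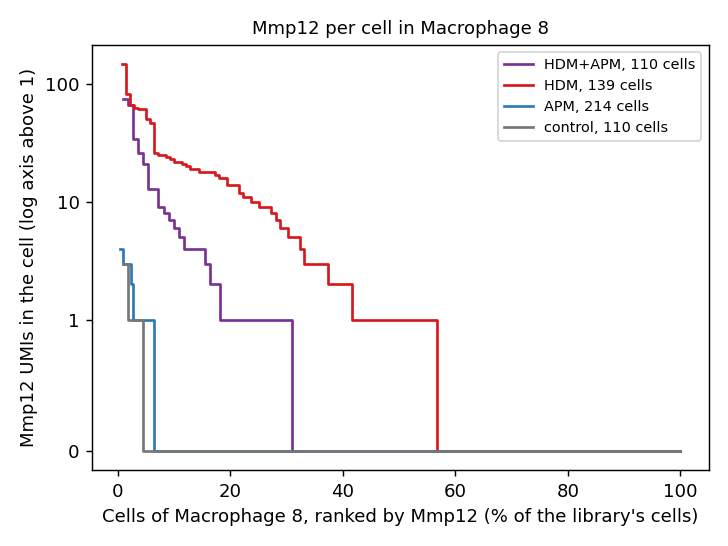
Mmp12 UMIs in each cell of Macrophage 8 (log axis above 1) against the cell's rank as a percentage of the library's Macrophage 8 cells, 1 line per library. The HDM line stays above 0 for 56.1% of cells and the HDM+APM line for 30.0%, while the APM and control lines reach 0 before 10% of cells.

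In Macrophages 1 to 7, 9 and 10 it was at 47.3 CPM in HDM+APM cells, 408 CPM in HDM cells, 17.1 CPM in APM cells and 11.3 CPM in control cells. The HDM value rested on few cells, while the 169 control UMIs lay in 107 cells and the 183 APM UMIs in 88. Of the 107 UMIs behind the HDM value, 92 came from 12 cells of Macrophage 7, the cluster led by cell cycle genes such as Top2a, and 42 of them from 1 cell. In the dendritic type, 26 of the 28 HDM UMIs lay in 1 of 38 cells, and no dendritic cell of the other libraries had any. In Macrophage 9, led by heat shock genes, 27 of the 36 APM UMIs lay in 1 of 65 cells. In HDM T cells Mmp12 had 256 UMIs per 100 of Arg1 (114 to 628), another leading gene of Macrophage 8, against 283 per 100 (252 to 317) in Macrophage 8 itself. Per 100 UMIs of Chil3, a gene of alveolar macrophages, it had 4.38 (2.75 to 6.65) in HDM T cells and 7.64 (7.19 to 8.10) in HDM cells of Macrophage 8, and these intervals did not overlap.

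Mmp13, the interstitial collagenase of mice, had 51 UMIs in all, and 32 of them lay in Macrophage 8. There it had 2 UMIs in HDM+APM cells, 28 in HDM cells, 1 in APM cells and 1 in control cells. The HDM sum rested on 1 cell with 25 UMIs. The remaining 3 HDM UMIs lay in 2 cells, so without the highest cell the count fell under the 20 UMIs required for a comparison.

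Mmp14, a membrane-anchored protease that can activate other MMPs, was highest in Macrophage 8 at 37.6 CPM. It had 19 UMIs in HDM+APM cells, 28 in HDM cells, 6 in APM cells and 1 in control cells, which is 38.3 CPM in HDM+APM, 61.0 CPM (40.5 to 88.1) in HDM, 18.7 CPM (6.85 to 40.6) in APM and 6.36 CPM (0.161 to 35.4) in control cells. The 2 libraries that received HDM were the highest, and the intervals of neighbouring libraries in that order overlapped. Unlike Mmp13, its UMIs lay in many cells, with at most 3 in any, and it was seen in 14 HDM+APM cells and 23 HDM cells. T cells and both B cell types had 0 UMIs of it. In the other macrophage clusters pooled it stood at 1.31 CPM in APM cells (0.714 to 2.19) and 3.55 CPM in control cells (2.66 to 4.64).

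Mmp19, a protease of basement membranes and matrix glycoproteins, was the most even of the family across macrophages. It lay between 21.0 CPM (Macrophage 10) and 62.7 CPM (Macrophage 8) in all 10 macrophage clusters, against 1.76 CPM in T cells, 2.14 CPM in B cells 2 and 0 of 151279 UMIs in granulocyte-like cells. In Macrophage 8 it had 54.4 CPM in HDM+APM cells, 95.8 CPM in HDM cells, 37.4 CPM in APM cells and 44.5 CPM in control cells. In HDM cells of Macrophage 8 that carried Mmp12, Mmp19 had 40 UMIs or 145 CPM, and in those without Mmp12 it had 4 UMIs or 21.8 CPM. The median depth was 3283 UMIs with Mmp12 and 2564 without it. The same split in HDM+APM cells gave 82.3 CPM with Mmp12 and 41.4 CPM without it, at median depths of 4849 and 4831 UMIs. Timp2 was at 272 CPM with Mmp12 and 254 CPM without it in HDM+APM cells, at 156 CPM with and 190.4 CPM without it in HDM cells, and at 366 CPM with and 168.5 CPM without it in APM cells, where 13 cells carried Mmp12. These Timp2 values rest on 43 and 86 UMIs in HDM+APM, 43 and 35 in HDM and 9 and 50 in APM cells. In control cells there were 1 and 24 UMIs. Intervals were not computed for these splits, so no direction is read for Timp2. Mmp14 was at 61.7 CPM with and 59.8 CPM without Mmp12 in HDM cells, and at 57.0 CPM with and 29.5 CPM without it in HDM+APM cells.

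Mmp8, known as neutrophil collagenase, lay mainly in the macrophage clusters here. Of its 468 UMIs, 462 came from Macrophages 1 to 10 and 5 from granulocyte-like cells. By level the order began with Macrophage 10 at 83.9 CPM (43.4 to 147), the granulocyte-like type at 33.1 CPM (10.7 to 77.1), Macrophage 4 at 28.2 CPM (22.4 to 35.0) and Macrophage 6 at 27.5 CPM (19.3 to 37.9), and the intervals of neighbours in this order overlapped. Macrophage 3 at 5.92 CPM and Macrophage 9 at 4.76 CPM were the lowest macrophage clusters. The "classical monocyte" cells had 0 of 1639763 UMIs and T cells had 1 UMI, at median depths of 5270 and 1404 UMIs. Because Macrophage 10 held only 50 cells and 12 Mmp8 UMIs, its position rests on few counts.

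Mmp9, the gelatinase stored in neutrophil granules, was almost limited in these counts to the granulocyte-like type, which held 71 of its 82 UMIs. There it had 8 UMIs in 39 HDM+APM cells, 62 in 132 HDM cells, 1 in 29 APM cells and 0 in 7 control cells. The levels were 228 CPM (98.5 to 449.6) in HDM+APM, 699 CPM (536 to 897) in HDM and 46.1 CPM (1.17 to 257) in APM cells. The interval of the 0 in control cells reached 626 CPM. The HDM level lay above the HDM+APM level without overlap of their intervals. Markers of other cells in this type differed as well: the 7 pan-macrophage markers summed to 2424 CPM in HDM+APM and 812 CPM in HDM cells, the 7 epithelial markers to 2253 CPM in HDM+APM and 530.2 CPM in HDM cells, the 6 cavity macrophage markers to 428 CPM in HDM+APM and 22.6 CPM in HDM cells, and the 5 red blood cell markers to 28.5 CPM in HDM+APM and 4513 CPM in HDM cells. The 9 neutrophil markers summed to 28321 CPM in HDM+APM and 33178 CPM in HDM cells, and the part of these differences in the Mmp9 levels was not tested. A UMI was seen in 17.9% of HDM+APM cells and 28.0% of HDM cells at median depths of 811 UMIs in HDM+APM and 647.5 in HDM, against 0.811% of HDM T cells at 1327 UMIs. Per 100 UMIs of the neutrophil gene S100a8, there were 3.43 of Mmp9 (2.62 to 4.41) in HDM granulocyte-like cells and 8.20 (2.57 to 20.2) in HDM T cells. Per 100 of S100a9 there were 8.10 (6.15 to 10.5) in HDM granulocyte-like cells and 12.2 (3.76 to 30.8) in HDM T cells.

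Adam8, which sheds proteins from the cell surface, had its highest levels in 4 types. It reached 106 CPM in granulocyte-like cells, 72.9 CPM in dendritic cells, 36.3 CPM in Macrophage 8 and 36.0 CPM in the "classical monocyte" cells. In Macrophages 1 to 7, 9 and 10 pooled it had 0.802 CPM, or 21 UMIs in 7383 cells. In Macrophage 8 it had 30.2 CPM in HDM+APM cells, 65.3 CPM in HDM cells, 6.23 CPM in APM cells and 31.8 CPM in control cells.

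Timp1, a secreted inhibitor of most MMPs, was rare with 54 UMIs. Macrophage 8 held 23 of them, with 8 in HDM+APM cells, 14 in HDM cells, 1 in APM cells and 0 in control cells. Granulocyte-like cells and T cells had none.

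Timp2, the inhibitor that also takes part in the activation of MMP-2 by MMP-14, was detected in every refined type and dominated in 1. In the 308 "classical monocyte" cells it stood at 1500 CPM (1442 to 1561), in 307 cells, with a median of 7 UMIs and at most 30 per cell. After thinning to 500 UMIs it was seen in 52.4% of these cells and in 4.64% of HDM+APM T cells, whose median depths were 5270 and 1850.5 UMIs. Macrophage 8 followed at 203 CPM (180.2 to 228) and the granulocyte-like type at 152 CPM (96.4 to 228), and the lowest type was the dendritic one at 24.3 CPM. Macrophages 1 to 7, 9 and 10 lay between 48.9 and 89.9 CPM. Those "classical monocyte" cells held 87.9% of the Timp2 UMIs of the HDM+APM library. They also carried Fn1, the matrix substrate fibronectin, at 6722 CPM, the protease inhibitor Slpi at 5379 CPM and the serine protease Prtn3 at 329 CPM.

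Genes were ranked by how closely their levels followed a member over the 17 types, among 4920 candidate genes, for members with at least 200 UMIs. Mmp12 was followed most closely by Ccl8 (Pearson r of 0.88), Gatm (0.83) and Rnase2a (0.81), and Mmp19 by Sel1l (0.94), Diaph2 (0.93) and Pdia6 (0.93). Mmp8 was followed by I830077J02Rik (0.95), Milr1 (0.93) and Runx1 (0.93), and Timp2 by Engase (0.92), Ptgs1 (0.91) and Arrb1 (0.91). The types share 4 libraries and differ in depth, so these values are descriptions.

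The 4 comparisons that follow share libraries, so they are not independent of each other. The effect of the allergen without dust was read from the HDM and control libraries. A gene counted as higher or lower when its log2 ratio, computed after adding 10 CPM to both levels, was at least 1 in size, the interval of its plain CPM ratio excluded 1, and it had at least 20 UMIs over both libraries. Classes needed 50 cells in both. The added 10 CPM understates the ratios of low genes.

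In the whole lavage 4 of the 9 genes were higher in HDM than in control cells and none was lower, while 7.31% of 10900 genes compared were higher and 4.66% lower. Mmp12 stood at 695 CPM (658 to 733) in HDM and 11.5 CPM (9.89 to 13.4) in control cells, a ratio of 60.2 (51.4 to 70.9). Mmp9 had 71 UMIs in HDM and none of 15170333 UMIs in control cells. Its HDM level was 187 times that of 3 counts in the control library, a value that is not a lower limit. Adam8 stood at 28.1 CPM in HDM and 1.32 CPM in control cells, a ratio of 21.3 (12.6 to 37.6). Mmp13 stood at 15.6 CPM in HDM and 0.725 CPM in control cells, but its log2 ratio of 1.26 became 0.25 without the highest cell of each library. In such sums over the whole lavage, fewer cells of a type and less RNA per cell cannot be told apart.

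The Mmp9 difference rested on shallow cells: among cells with at least 1000 UMIs its log2 ratio was 0.61 in place of 2.23. Only 2 of the 132 HDM granulocyte-like cells reached that depth, and neither carried a UMI of it. Mmp14 at 15.6 CPM in HDM and 3.56 CPM in control cells had a plain ratio of 4.39 (2.71 to 6.98), and Timp1 at 9.89 CPM in HDM and 0.264 CPM in control cells a plain ratio of 37.5 (12.5 to 152), but neither reached 2-fold once 10 CPM was added. Timp2 at 79.7 CPM in HDM and 82.0 CPM in control cells had a ratio of 0.971 (0.816 to 1.15). Mmp19 at 28.1 CPM in HDM and 30.9 CPM in control cells had a ratio of 0.909 (0.673 to 1.21), and Mmp8 at 9.89 CPM in HDM and 13.1 CPM in control cells one of 0.754 (0.445 to 1.21).

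**Figure D3:**
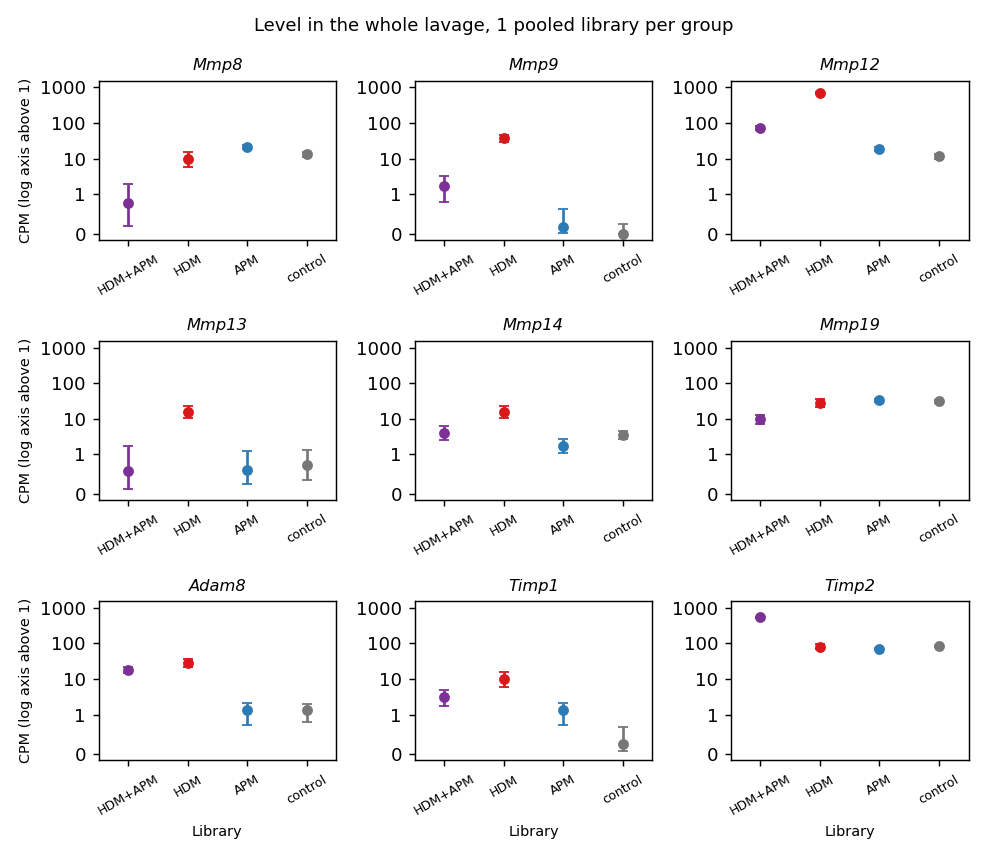
Level of each gene over all cells of a library (CPM, log axis above 1), with exact 95% Poisson intervals, in the HDM+APM, HDM, APM and control libraries. Mmp12 peaks in HDM at 695 CPM and Timp2 in HDM+APM at 538 CPM, while Mmp19 is lowest in HDM+APM at 9.62 CPM.

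In Macrophage 8 itself, 3 of 6 members compared were higher in HDM than in control cells and none was lower, against 7.75% of 4024 genes higher and 5.59% lower. They were Mmp12, with a ratio of 66.6 (30.5 to 182), and Mmp13 and Mmp14, each with 28 UMIs in HDM and 1 UMI in control cells and a ratio of 9.59 (1.59 to 392). For Mmp13 the log2 ratio of 2.12 became 0.73 without the highest cell of each library. Mmp19 had a ratio of 2.15 (0.962 to 5.67), Adam8 one of 2.06 (0.790 to 6.78) and Timp2 one of 1.07 (0.674 to 1.75). The median log2 ratio was 1.54 over the 6 members and 0.07 over all genes compared. The control counts of Mmp19 (7 UMIs) and Adam8 (5 UMIs) were low, like those of Mmp12, Mmp13 and Mmp14. All of these met the UMI minimum through the HDM cells, with 44 UMIs of Mmp19 and 30 of Adam8. Members were also chosen with earlier results known. Neither the share of members called nor their median can therefore be weighed against the values for all genes.

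In Macrophages 1 to 7, 9 and 10 pooled, Mmp12 was the 1 of 5 members that was higher in HDM than in control cells, against 2.6% of 10358 genes higher and 1.24% lower, and no member was lower. Its ratio was 36.0 (28.0 to 46.2). Its log2 ratio of 4.29 became 3.71 without the highest cell of each library and 3.80 with the cluster shares made equal in both libraries. Of the 107 HDM UMIs behind this ratio, 92 lay in 12 cells of Macrophage 7. Neither alternative left out that cluster, so the ratio does not describe the other clusters. Timp2 had a ratio of 1.64 (1.13 to 2.29) on 35 HDM and 1218 control UMIs. Scaling by the median ratio of all genes shifts this class by 0.14 on the log2 scale.

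Other genes of the pathway were counted from fixed lists. Of 14 other MMP genes 4 were in the matrix. Only 1 had enough UMIs for a comparison, for APM against control in the whole lavage, and it was not called. In Macrophage 8, 1 of 4 compared ADAM and ADAMTS genes was higher in HDM than in control cells, namely Adam17, the main TNF sheddase, at 142 CPM in HDM and 38.1 CPM in control cells. The list of other inhibitors is not limited to inhibitors of MMPs. Of 4 compared 2 were lower, Slpi at 157 CPM in HDM and 464 CPM in control cells and Serpinb6a at 54.4 CPM in HDM and 159 CPM in control cells. Among activators and partners, Furin, which cleaves protease precursors, was higher at 226 CPM in HDM and 95.3 CPM in control cells. Both compared matrix substrates were higher, Fn1 at 1045 CPM in HDM and 261 CPM in control cells and Spp1 at 1043 CPM in HDM and 292 CPM in control cells. No gene of these lists was called in Macrophage 8 for APM against control.

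The effect of dust without allergen was read from the APM and control libraries, and no member reached a 2-fold difference in the whole lavage (0 of 6 compared) or in Macrophages 1 to 7, 9 and 10 (0 of 5). In the whole lavage 0.316% of 11089 genes were higher and 0.00902% lower, and in those clusters 0.174% of 10893 genes were higher and 0.00918% lower. Mmp8 stood at 21.7 CPM (19.0 to 24.5) in APM and 13.1 CPM (11.4 to 15.1) in control lavage, a ratio of 1.65 (1.36 to 2.00). Mmp12 stood at 18.2 CPM in APM and 11.5 CPM in control cells, a ratio of 1.58 (1.29 to 1.94), and Timp2 at 70.2 CPM in APM and 82.0 CPM in control cells, a ratio of 0.856 (0.782 to 0.936). Adam8 at 1.32 CPM in both libraries had a ratio of 1.00 (0.477 to 2.06), and Mmp19 at 33.2 CPM in APM and 30.9 CPM in control cells one of 1.07 (0.935 to 1.23). Mmp14 was at 1.31 CPM in APM and 3.55 CPM in control cells of Macrophages 1 to 7, 9 and 10, a plain ratio of 0.368 (0.189 to 0.674) that the added 10 CPM brings under 2-fold.

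Cluster by cluster, Mmp12 in Macrophage 9 was the 1 call for APM against control, among 3 members compared there. It had 36 UMIs or 129 CPM in APM and 12 UMIs or 34.2 CPM in control cells, a ratio of 3.76 (1.91 to 7.94), and its log2 ratio of 1.65 became 0.49 without the highest cell of each library. No member was called among the 4 compared in Macrophage 1, where 1.6% of genes were past 2-fold in either direction, the 4 in Macrophage 2 (0.38%), the 5 in Macrophage 3 (0.434%), the 4 in Macrophage 5 (0.305%), the 3 in Macrophage 7 (0.486%) or the 2 in Macrophage 8 (3.86%). The share of genes in Macrophage 9 was 4.57%. The clusters differed in size between these libraries: Macrophage 1 had 94 APM and 1360 control cells, and Macrophage 4 had 1033 APM and 22 control cells, too few for a comparison.

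Dust before allergen was compared with allergen alone through the HDM+APM and HDM libraries. In the whole lavage Timp2 was higher and Mmp9, Mmp12 and Mmp13 were lower in HDM+APM, among 9 members compared, while 3.11% of 10136 genes were higher and 5.51% lower. Timp2 stood at 538 CPM (519 to 559) in HDM+APM and 79.7 CPM (67.5 to 93.3) in HDM lavage, a ratio of 6.76 (5.74 to 8.01). Mmp12 stood at 72.5 CPM (65.4 to 80.2) in HDM+APM and 695 CPM (658 to 733) in HDM lavage, a ratio of 0.104 (0.0929 to 0.117). Mmp9 stood at 1.73 CPM in HDM+APM and 37.0 CPM in HDM lavage, a ratio of 0.0468 (0.0206 to 0.0940), and its log2 ratio was -0.53 in cells with at least 1000 UMIs. Mmp13 stood at 0.577 CPM in HDM+APM and 15.6 CPM in HDM lavage, with a log2 ratio of -1.28 that became -0.28 without the highest cell of each library. Median ratio scaling shifts the whole lavage by -0.26 on the log2 scale in this comparison, and with it the Mmp12 log2 ratio of -3.09 became -2.85.

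The cell make-up of the libraries differed too. The "classical monocyte" cells made up 27.4% of HDM+APM cells and were absent from the HDM cells, and T cells were 12.1% of HDM+APM and 49.6% of HDM cells. Granulocyte-like cells, the main holders of Mmp9, were 3.47% of HDM+APM and 13.3% of HDM cells. Macrophage 8, the main holder of Mmp12, was 9.80% of HDM+APM and 13.98% of HDM cells. The part of these shares in the differences of the whole lavage was not tested.

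Within Macrophage 8, no member was higher and 2 of 7 compared were lower in HDM+APM than in HDM cells, against 1.55% of 5176 genes higher and 2.43% lower. Mmp12 had a ratio of 0.254 (0.223 to 0.287) and Mmp13 one of 0.0661 (0.00763 to 0.262). The Mmp13 log2 ratio of -2.34 became -0.46 without the highest cell of each library. The ratios of Mmp14 (0.628), Mmp19 (0.568), Adam8 (0.462) and Timp1 (0.528) were also below 1, and the intervals of Mmp19 (0.338 to 0.937) and Adam8 (0.231 to 0.887) excluded 1. Timp2 was at 260 CPM in HDM+APM and 169.8 CPM in HDM cells, a ratio of 1.53 (1.15 to 2.05). Beside it, the 6 cavity macrophage markers, which include genes leading in the "classical monocyte" cells, summed to 276 CPM in HDM+APM and 0 CPM in HDM cells of Macrophage 8, and their part in the Timp2 value was not tested. Among the pathway lists Slpi was higher, at 469 CPM in HDM+APM and 157 CPM in HDM cells, as 1 of 5 inhibitors compared. No gene of the other lists was called in this cluster. Slpi was also higher in T cells, at 208 CPM in HDM+APM and 15.8 CPM in HDM cells. In B cells 1 and 2 together it was at 187 CPM in HDM+APM and 28.9 CPM in HDM cells. The "classical monocyte" cells, present only in HDM+APM, carried it at 5379 CPM, and their part in these values was not tested.

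**Figure D4:**
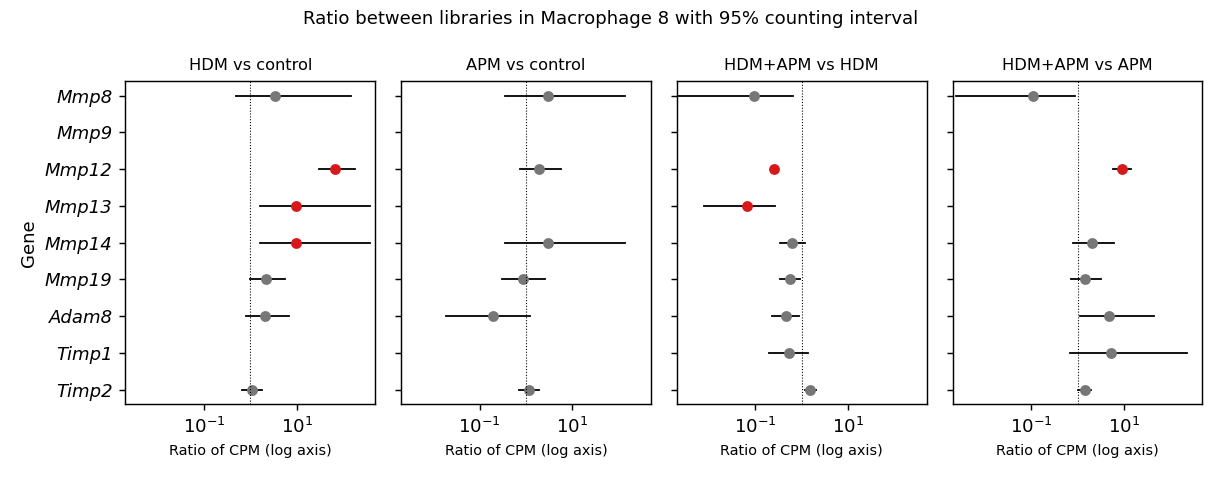
Ratio of CPM between libraries in Macrophage 8 (log axis) for the 4 comparisons, with exact 95% counting intervals cut at the axis limits. Red points passed the 2-fold rule, grey points did not, and a gene is drawn where both libraries had a UMI and at least 7 were counted over both. Mmp12 lies far above 1 for HDM against control and below 1 for HDM+APM against HDM, while Timp2 lies between 1.07 and 1.53 in all panels.

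In T cells 1 of 2 members compared was higher in HDM+APM than in HDM cells and none was lower, against 1.64% of 4949 genes higher and 3.25% lower. This was Timp2, at 109 CPM (74.8 to 154) in HDM+APM and 30.4 CPM (19.3 to 45.6) in HDM cells, a ratio of 3.60 (2.04 to 6.44). Of the pathway lists, Slpi and Fn1 were also higher in HDM+APM T cells and Adam19 was lower. The cavity macrophage markers summed to 188 CPM in HDM+APM T cells and 3.96 CPM in HDM T cells. Per 100 UMIs of Fn1, the HDM+APM library had 42.1 UMIs of Timp2 (26.9 to 64.4) in T cells, 23.7 (19.3 to 29.0) in B cells 2, 20.5 (16.9 to 24.9) in Macrophage 8 and 22.3 (21.4 to 23.3) in the "classical monocyte" cells. Per 100 UMIs of Prg4, a leading gene of the "classical monocyte" cells, it had 178 (96.8 to 336) in T cells, 112 (85.7 to 147) in B cells 2, 445 (295.5 to 690.5) in Macrophage 8 and 85.2 (80.7 to 89.9) in the "classical monocyte" cells. By Prg4 the intervals of T cells and Macrophage 8 lay above that of the "classical monocyte" cells, and by Fn1 that of T cells did. Macrophage 8 also carried Fn1 in libraries without "classical monocyte" cells, at 1045 CPM in HDM, 224 CPM in APM and 261 CPM in control cells. The part of free RNA in these ratios was not tested. In B cells 1 and 2 together none of the 2 members compared was called, against 3.98% of 6911 genes higher and 7.57% lower. Timp2 there stood at 51.6 CPM in HDM+APM and 24.1 CPM in HDM cells, a ratio of 2.14 (0.892 to 6.71). Of the 449 HDM+APM cells, 404 were of the type B cells 2, against 9 of 128 HDM cells. Slpi and Fn1 of the pathway lists were higher in these HDM+APM B cells, and Adam17, Cstb and Spp1 were lower.

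Allergen after dust was compared with dust alone through the HDM+APM and APM libraries. In the whole lavage 3 of 7 members compared were higher in HDM+APM and 2 were lower, against 5.82% of 11149 genes higher and 7.8% lower. Timp2 stood at 538 CPM in HDM+APM and 70.2 CPM in APM lavage, a ratio of 7.67 (7.09 to 8.31), and Adam8 at 18.3 CPM in HDM+APM and 1.32 CPM in APM lavage, a ratio of 13.8 (7.98 to 25.7). Mmp12 stood at 72.5 CPM in HDM+APM and 18.2 CPM in APM lavage, a ratio of 3.98 (3.35 to 4.74). Mmp8 stood at 0.770 CPM in HDM+APM and 21.7 CPM in APM lavage, a ratio of 0.0355 (0.00960 to 0.0921). Mmp19 stood at 9.62 CPM in HDM+APM and 33.2 CPM in APM lavage, a ratio of 0.290 (0.211 to 0.390). In Macrophages 1 to 7, 9 and 10, Mmp8 was at 11.8 CPM (2.44 to 34.6) in 46 HDM+APM cells and 22.2 CPM (19.5 to 25.2) in 3501 APM cells. Mmp19 there was at 23.7 CPM (8.69 to 51.5) in HDM+APM and 33.8 CPM (30.4 to 37.5) in APM cells. These HDM+APM cells were too few for a comparison, and the part of cell make-up in the 2 lavage ratios was not tested. Median ratio scaling shifts the whole lavage by -0.29 and T cells by -0.15 on the log2 scale here. Of the Adam8 UMIs in HDM+APM, 62.1% lay in "classical monocyte" cells, a type without cells in the APM library.

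In Macrophage 8, Mmp12 was the 1 of 4 members that was higher in HDM+APM than in APM cells and none was lower, against 4.85% of 4726 genes higher and 4.49% lower. Its ratio was 9.00 (5.89 to 14.4). Timp2 had a ratio of 1.41 (1.03 to 1.96) and Mmp19 one of 1.46 (0.713 to 3.15). In T cells Timp2 was the only member compared and was higher, with 32 UMIs in 136 HDM+APM cells and 0 in 52 APM cells. Its HDM+APM level was 2.28 times that of 3 counts in the APM T cells, again not a lower limit. There 4% of 2074 genes were higher and 8.15% lower. Among the substrates in Macrophage 8 both Fn1, at 1265 CPM in HDM+APM and 224 CPM in APM cells, and Spp1, at 1063 CPM in HDM+APM and 361 CPM in APM cells, were higher. The inhibitors Cst3, at 1613 CPM in HDM+APM and 3866 CPM in APM cells, and Serpinb6a, at 78.5 CPM in HDM+APM and 189.9 CPM in APM cells, were lower among 5 compared.

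**Figure D5:**
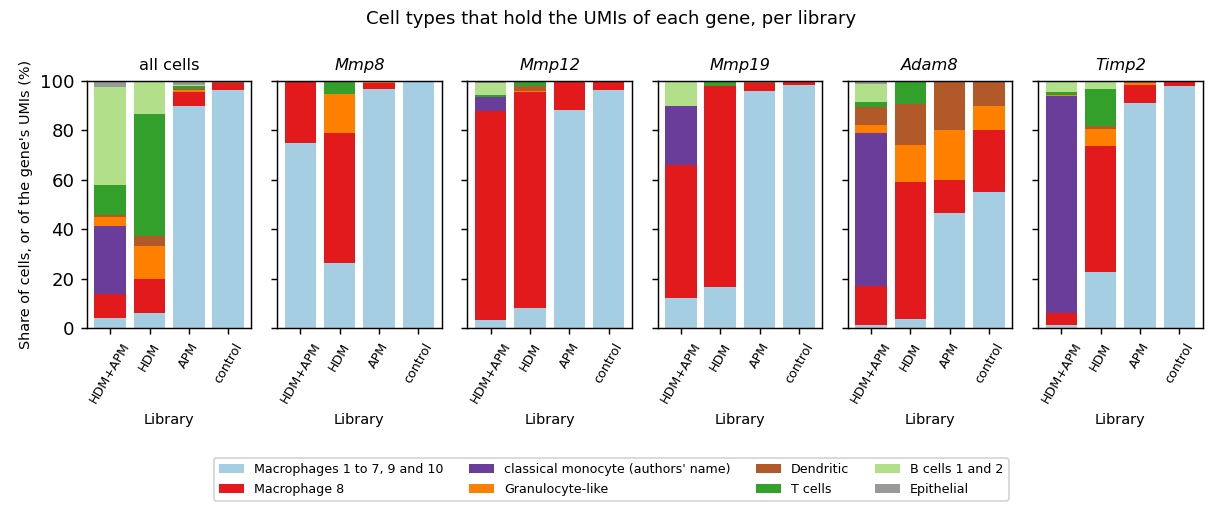
Share of all cells (left panel) and of the UMIs of 5 members held by each group of cell types, per library, in percent of that library. Macrophage 8 (red) holds 84.9% of Mmp12 UMIs in HDM+APM and 87.5% in HDM from 9.80% of HDM+APM cells and 13.98% of HDM cells, and the "classical monocyte" cells (purple) hold 87.9% of Timp2 UMIs in HDM+APM.

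The balance of proteases to inhibitors was described by the sum of UMIs of the 6 Mmp members over the sum of Timp1 and Timp2. In Macrophage 8 it was 2.69 (2.21 to 3.30) in HDM+APM cells, 13.9 (11.2 to 17.4) in HDM cells, 0.800 (0.536 to 1.19) in APM cells and 0.640 (0.319 to 1.25) in control cells. The HDM value was the highest, the HDM+APM value the next, and the APM and control values overlapped. In the whole lavage it was 0.165 (0.149 to 0.182) in HDM+APM, 8.94 (7.63 to 10.5) in HDM, 1.06 (0.960 to 1.17) in APM and 0.728 (0.667 to 0.793) in control cells. Thus the HDM+APM lavage had the lowest and the HDM lavage the highest ratio of the 4 libraries. The numerator in HDM is mostly Mmp12 and the denominator in HDM+APM mostly Timp2 of the "classical monocyte" cells, and UMI ratios say nothing of secreted or active protein.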

How the data were processed

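Lavage cells of 4 groups (7 mice pooled into 1 library each) were profiled with the 10x Genomics 3' v2 kit, per the labels' protocols. Per the submitters' processing notes, the tools included Cell Ranger (version 2.2.0) and Seurat (version 2.3.4) and the build was mm10; their roles are not stated. The strand setting and cell filters are not given in the sources used here. The authors deposited raw UMI counts per gene and cell and a table of cell labels; all 9925 cells were kept (496 to 9998 UMIs each). Doublets were not called here, and whether the authors removed any is not given.

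UMIs were summed per refined type and library and scaled to CPM, with exact Poisson intervals; shares of cells have Clopper-Pearson intervals and CPM ratios exact conditional binomial intervals (95%). Intervals cover counting error only. With 1 library per group there was no test. Python 3.11.15, numpy 2.4.6, pandas 2.3.3, scipy 1.17.1 and matplotlib 3.10.9 were used. The 2-fold rule was tried on simulated Poisson counts in which only genes with at least 50 CPM were changed. Such counts lack the unevenness between cells seen for genes such as Mmp13, so the trial does not cover it. In 23 cells the coarse label was epithelial and the refined label a macrophage cluster, and the refined label was used. Ratios are given in full for called members; genes most like a member were the 3 with the highest Pearson r of log2(CPM + 10) among genes with at least 200 UMIs and 50 CPM in 1 type. Members and lists were chosen with earlier results of these data known. Alternatives were pseudocounts of 1 and 50 CPM, no UMI minimum, cells with at least 1000 UMIs, means over cells, median ratio scaling, 5% free RNA subtracted, other groupings of clusters and thinning to 500 or 1000 UMIs. A gene of the list of activators and partners is not reported here.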

Additional observations from a re-analysis of the deposited data

Results flagged for a closer look

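In the whole lavage the APM contrast had ratios on opposite sides of 1 after saline and after HDM, with both counting intervals excluding 1, for 4 members. Mmp8 had an APM to control ratio of 1.65 and an HDM+APM to HDM ratio of 0.0778. Mmp12 had ratios of 1.58 and 0.104 in the same order. Timp1 had ratios of 5.01 and 0.311, on 15, 4, 16 and 19 UMIs in APM, control, HDM+APM and HDM. Timp2 had ratios of 0.856 and 6.76. Mmp19 at 1.07 and 0.342, Adam8 at 1.00 and 0.650, and Mmp9, with 2 UMIs in APM, 0 in control and a ratio of 0.0468 for HDM+APM to HDM, also lay on opposite sides of 1, but the intervals of their APM to control ratios included 1. With 1 library per group the difference between the contrasts was not tested, and the cell make-up of the libraries differed as described above.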

How the results depend on the processing

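No paired analysis was possible because each group was 1 library with no replicate numbers. Across 13 counts of members past 2-fold, 102 alternatives stayed within 1.5 times of the count and 14 did not. No called ratio changed direction under any of 177 alternatives, but 52 of them moved it beyond its interval and 125 did not. With means over cells, 10 levels of the whole lavage moved beyond their intervals and 26 did not. Mmp12 in HDM lavage was then at 404 CPM in place of 695 CPM. With a pseudocount of 50 CPM the count for HDM against control was 1 in Macrophage 8 and 1 in the whole lavage, that for HDM+APM against HDM 0 in T cells and 2 in the whole lavage, and that for HDM+APM against APM 1 in the whole lavage. With 1 CPM, HDM+APM against HDM gave 8 in the whole lavage. With means over cells, Macrophage 8 gave 5 for HDM against control and 3 for HDM+APM against APM. Without a UMI minimum, HDM against control gave 2 in Macrophages 1 to 7, 9 and 10 and HDM+APM against APM 3 in Macrophage 8. With all 10 macrophage clusters as 1 class, HDM against control gave 6 and HDM+APM against APM 5. After the data were seen, 2 alternatives were added: leaving out the cell with the most UMIs of a member gave 1 in B cells for HDM+APM against HDM, and leaving out the 23 cells of mixed label moved no count by over 1.5 times. The causes were not tested. Of 20 alternatives for shares of cells with a UMI, 19 moved the share beyond its interval. Low UMI sums limit Mmp9, Mmp13, Mmp14, Adam8 and Timp1.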
